A study of Mus musculus with 188 samples.

Results

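Free hemoglobin (Hb) at 400 μM was compared with control medium after 48 h in mouse organotypic brain-slice cultures (BSC) by bulk mRNA sequencing. The libraries were taken by their treatment label from the batches 2 and 3 of the series, which gave 10 libraries with Hb and 9 controls, 19 of the 188 libraries in all. The cultures were coronal sections of C57BL/6J brain from adult mice of both sexes aged 6 to 8 weeks. They were kept at an air-liquid interface, moved to serum-free medium before treatment and treated on culture day 7 with human Hb, while control inserts received no Hb. Each insert carried more than 1 slice, and neither the labels nor the methods say which libraries share an animal, so the p-values below measure the spread between libraries. The title and treatment labels give the dose as 400 μM, whereas the treatment text shared by all libraries names 200 μM alone. Of these groups, batch 2 held 8 Hb and 7 control libraries and batch 3 held 2 of each. The library names carry the codes E1 and E2, which the methods do not explain and which are taken here as culture rounds. By these codes, 7 Hb and 7 control libraries came from round E1 and the remaining 3 and 2 from round E2. By the sex letter of the names, 5 and 4 were from females.

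Hb set free from red blood cells gives up heme, which heme oxygenase splits into iron, carbon monoxide and biliverdin. Heme releases the repressor BACH1 from DNA, and electrophiles and oxidants stabilize the activator NRF2. Both proteins bind the antioxidant response element with small MAF partners and set the level of genes for glutathione, thioredoxin, NADPH, ferritin and heme export or breakdown. Iron itself acts on transferrin receptor and ferritin mRNA through iron regulatory proteins, and in brain it is handled mainly by microglia, macrophages and glia.

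The upstream windows of raised genes were read for the core letters of the antioxidant response element, TGACNNNGC, on both strands in the 250 bases before each RefSeq gene start (build GRCm38.p6). A match was present in 14 of the 41 raised genes with a window (34.1%), in 0 of 7 lowered genes and in 11.5% of all 27025 symbols with a window. These symbols include genes that were not tested here, so they are not a like set. The longer form TGACTCAGC, which is one of the forms of the core, stood in 3 raised genes (Prdx1, Ikbkg and Pir) and in 0.426% of all symbols with a window. A match is a description of the letters and not a bound site. Those 3 windows are shown with that of Gclm, whose libraries did not overlap between the groups below, and with that of G6pdx, whose 5′ end overlaps that of Ikbkg on the opposite strand. They are written 5′ to 3′ on the strand of the gene, with the match in capitals, also where the core was read on the other strand and stands as its reverse complement. They are Prdx1 at chr4:116685349-116685598 (+), Ikbkg at chrX:74424362-74424611 (+), Pir at chrX:164269181-164269430 (+), Gclm at chr3:122245307-122245556 (+) and G6pdx at chrX:74428881-74429130 (−).
Prdx1: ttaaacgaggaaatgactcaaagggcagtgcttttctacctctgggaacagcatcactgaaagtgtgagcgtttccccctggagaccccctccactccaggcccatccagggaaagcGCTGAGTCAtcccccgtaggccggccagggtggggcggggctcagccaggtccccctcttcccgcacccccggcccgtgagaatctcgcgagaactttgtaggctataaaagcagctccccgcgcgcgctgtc
Ikbkg: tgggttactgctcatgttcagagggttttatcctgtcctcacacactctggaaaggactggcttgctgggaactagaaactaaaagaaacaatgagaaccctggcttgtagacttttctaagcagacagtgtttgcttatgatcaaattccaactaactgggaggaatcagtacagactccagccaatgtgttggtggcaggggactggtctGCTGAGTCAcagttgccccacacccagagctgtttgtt
Pir: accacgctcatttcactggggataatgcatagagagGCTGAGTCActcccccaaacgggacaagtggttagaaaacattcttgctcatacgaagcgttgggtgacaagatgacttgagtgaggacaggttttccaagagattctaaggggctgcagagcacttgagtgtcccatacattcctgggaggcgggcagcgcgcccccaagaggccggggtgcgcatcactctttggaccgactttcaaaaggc
Gclm: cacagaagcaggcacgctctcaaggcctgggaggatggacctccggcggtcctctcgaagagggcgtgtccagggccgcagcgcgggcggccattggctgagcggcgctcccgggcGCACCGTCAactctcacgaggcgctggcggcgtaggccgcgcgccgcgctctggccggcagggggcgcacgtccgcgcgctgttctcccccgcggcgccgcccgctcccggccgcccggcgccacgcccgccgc
G6pdx: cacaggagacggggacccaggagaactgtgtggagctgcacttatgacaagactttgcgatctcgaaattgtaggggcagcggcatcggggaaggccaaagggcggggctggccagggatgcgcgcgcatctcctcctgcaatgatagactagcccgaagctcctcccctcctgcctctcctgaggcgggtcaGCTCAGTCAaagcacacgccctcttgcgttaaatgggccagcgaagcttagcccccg

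Total counts ran from 26486785 to 54174784 in the Hb libraries (median 47386490) and from 26537187 to 47468700 in the controls (median 46163050). Genes of the mitochondrial genome took 2.29 to 3.59% of the counts with Hb and 2.43 to 2.80% without. The first principal component held 46.2% of the variance of the 19 libraries and did not separate the groups (−50.7 to 60.2 with Hb, −55.3 to 64.9 without). Sex-linked genes matched the sex letter of the library name in 19 of 19 libraries, and no 2 libraries of a group agreed within sampling noise. Markers of neurons, astrocytes and oligodendrocytes were present in every library, as the neuronal Snap25 from 9.01 to 85.2 CPM (median 24.4), Aldoc from 296 to 365 CPM (median 354) and Mbp from 7847 to 14864 CPM (median 12293) in the controls. With Hb, Snap25 ran from 8.08 to 59.4 CPM (median 21.03). Levels are given below as CPM, read counts scaled to the TMM-adjusted size of each library. Differences are log2 fold changes ± SE, Hb over control, with the adjusted p from the edgeR quasi-likelihood test with Benjamini-Hochberg adjustment over 16183 genes.

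At 48 h, 61 genes passed an adjusted p of 0.05, which was 0.377% of the genes tested. Of these, 50 rose with Hb (0.309%) and 11 fell (0.068%). The raised genes included the cytokine Il19, the xenobiotic oxidase Cyp1a1, the iron exporter Slc40a1 and the quinone reductase Nqo1, and the lowered ones were led by Pi15 and the transferrin receptor Tfrc. A change of at least 2-fold was fitted for 10 raised and 0 lowered genes, and 28 of the 61 changed by at least 1.5-fold. The median log2 fold change of all genes was −0.0046, and 47.7% of them were higher with Hb. All Hb libraries lay on 1 side of all controls for 14 genes (0.0865% of those tested), of which 11 were raised and 2 lowered calls, while the remaining one, Zdhhc18 (0.16), did not pass. Of the 61 genes, 38 were called whichever of the 19 libraries was left out, and the libraries behind the other 23 calls are given with the genes named below.

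**Figure D1:**
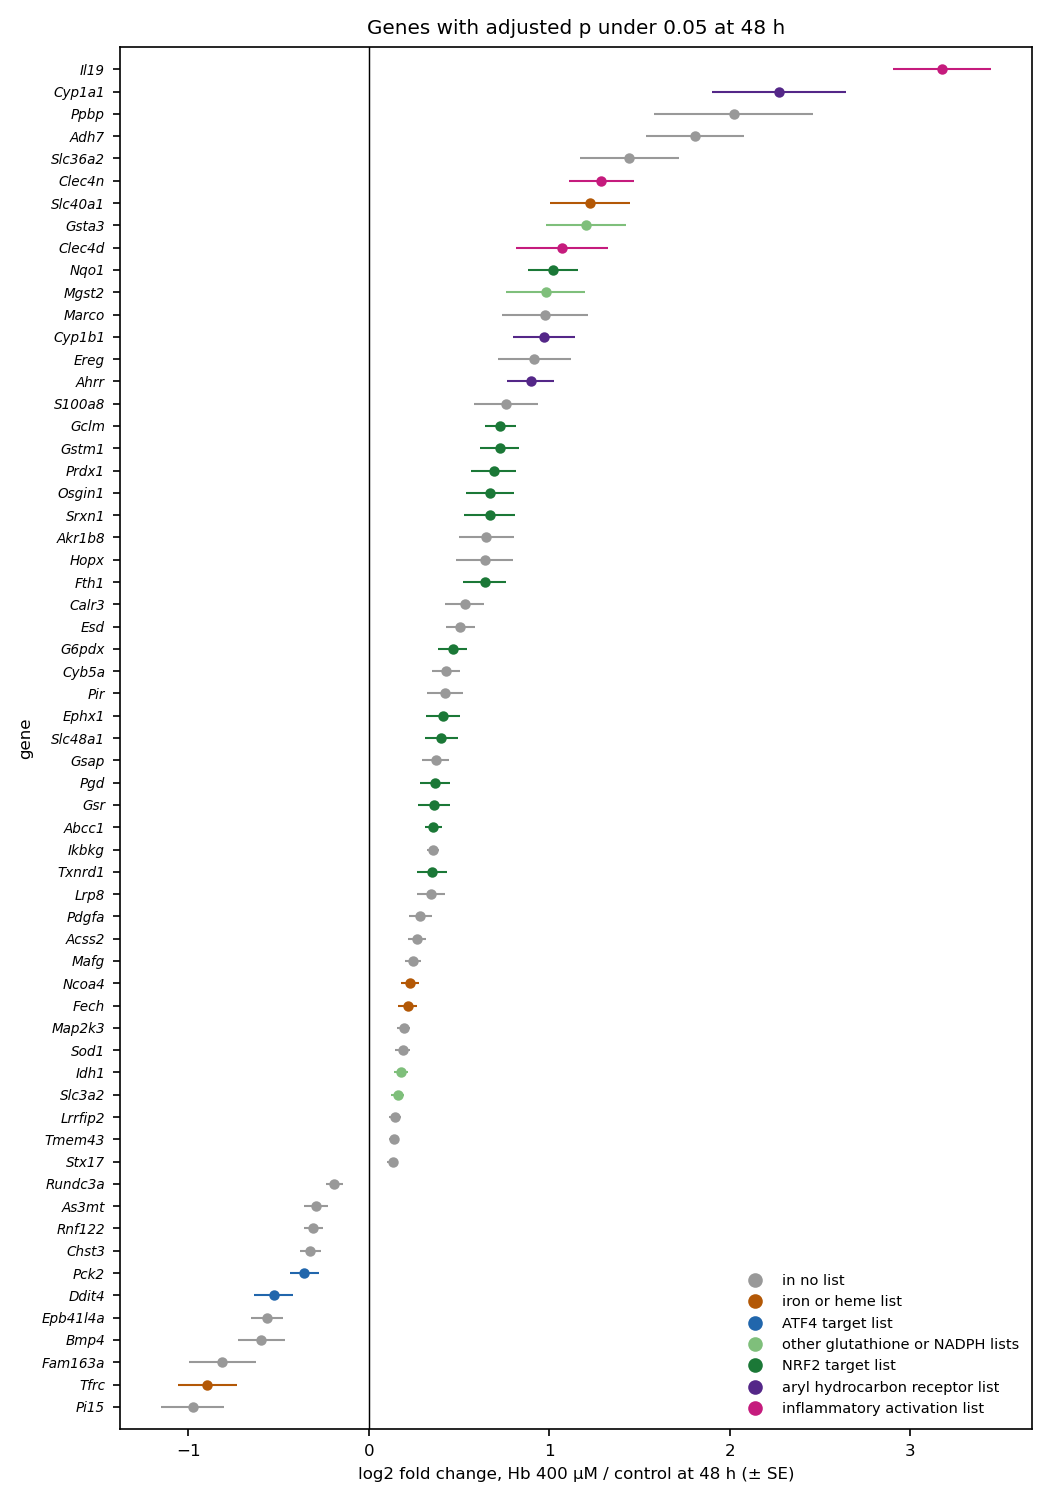
Log2 fold change (x axis, Hb 400 μM over control at 48 h, bars ± SE) of the 61 genes that passed an adjusted p of 0.05, with 1 gene per line and colored by list. The 50 raised genes run from 0.13 (Stx17) to 3.18 (Il19) and the 11 lowered ones from −0.98 (Pi15) to −0.19 (Rundc3a).

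Among genes of heme and iron, Hb raised the exporter Slc40a1, ferritin heavy chain Fth1, the ferritin receptor Ncoa4, the heme transporter Slc48a1 and the last enzyme of heme synthesis, Fech, and lowered Tfrc. Slc40a1, which encodes the iron exporter ferroportin, ran from 10.3 to 35.5 CPM (median 18.8) in the controls and from 24.0 to 72.9 CPM (median 47.4) with Hb. In all, 9 of the 10 Hb libraries lay above every control, and the log2 fold change was 1.23 ± 0.22, adjusted p = 0.000865. Fth1, the iron-oxidizing subunit of the ferritin shell, ran from 3226 to 5596 CPM (median 4052) in controls and from 5338 to 8845 CPM (median 6382) with Hb. Again 9 of the 10 Hb libraries lay above every control, and it rose by 0.64 ± 0.12, adjusted p = 0.00127. Its light-chain partner Ftl1 had a log2 fold change of 0.39 ± 0.22, adjusted p = 0.891, which did not pass. Ferritin genes have processed pseudogenes, and how reads shared with them were counted is not given in the sources used here.

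Tfrc, the receptor that takes up transferrin-bound iron, moved the other way, from 67.1 to 129 CPM (median 116) without and from 36.6 to 86.7 CPM (median 53.1) with Hb. Here 7 of the 10 Hb libraries lay below every control, and its log2 fold change was −0.89 ± 0.17, adjusted p = 0.00104. Ncoa4 carries ferritin to the lysosome for iron release and showed a small shift with no overlap, from 60.9 to 70.1 CPM (median 66.7) against 71.1 to 85.4 CPM (median 78.6), a log2 fold change of 0.23 ± 0.048, adjusted p = 0.00647. Slc48a1, also called HRG1, moves heme out of the lysosome and ran from 212 to 338 CPM (median 251) in controls and from 259 to 401 CPM (median 337) with Hb, a log2 fold change of 0.40 ± 0.090, adjusted p = 0.0153. Slc48a1 lost its call without control replicate 1, 2 or 3 (adjusted p = 0.0501 to 0.0518). For Fech, ferrochelatase, the range was from 79.2 to 90.7 CPM (median 83.5) without and from 87.7 to 105 CPM (median 98.7) with Hb, a log2 fold change of 0.22 ± 0.052, adjusted p = 0.0308. Fech lost its call without control replicate 1, 2, 3, 7, 8 or 9 and without Hb replicate 3, 4, 6, 7 or 10 (adjusted p = 0.0506 to 0.0856). Slc48a1 overlaps Hdac7 on the opposite strand, and whether the counting used strand is not stated.

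Over all genes, 0.309% rose, 0.068% fell and 47.7% were fitted higher with Hb. Of the 10 genes listed for heme breakdown and transport, 1 rose, 0 fell and all 10 were fitted higher with Hb (median log2 fold change 0.09, but −0.042 in culture round E2 alone). The 8 genes of heme synthesis gave 1 raised, 0 lowered and 2 higher, with Alas1, the first and rate-limiting enzyme, at −0.23 ± 0.093, adjusted p = 0.544. Iron handling counted 3 raised and 1 lowered of 19 tested, with 12 higher. Biliverdin reductase Blvrb came close to the threshold at 0.53 ± 0.13, adjusted p = 0.0522, and the repressor Bach1 was at 0.091 ± 0.054, adjusted p = 0.928. None of the 4 tested scavengers and receptors passed. Hemopexin (Hpx), the heme-binding plasma protein, was at 0.78 ± 0.29, adjusted p = 0.432, the Hb-haptoglobin receptor Cd163 at 0.29 ± 0.30, adjusted p = 0.9998, and the hemopexin receptor Lrp1 at 0.019 ± 0.13, adjusted p = 0.9998. The direction of Lrp1 turned without control replicate 3, 5 or 6 and without Hb replicate 1, 2 or 5 (lowest −0.035), and that of Cd163 in culture round E2 alone.

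Of the lists examined, that of NRF2 targets held the most calls. All 30 of its members were fitted higher with Hb (47.7% of all genes were), 14 of them rose against 0.309% of all genes, none fell, and the median log2 fold change was 0.38. With DESeq2 16 rose, and 9 did with the 19 libraries fitted alone. Further terms in the fit gave 19 raised members (culture round) to 25 (2 surrogate variables, which are unlabelled factors estimated from the data), and none rose with title numbers as a block, in batch 3 alone or in culture round E2 alone, where the list medians were 0.46 and 0.54. Nqo1, which reduces quinones to hydroquinones, ran from 7.29 to 13.9 CPM (median 10.6) in the controls and from 14.3 to 29.7 CPM (median 22.4) with Hb. The groups did not overlap and the log2 fold change was 1.02 ± 0.14, adjusted p = 2.49e-06, the largest of the list. Glutathione synthesis is limited by the glutamate-cysteine ligase, and its modifier subunit Gclm ran from 83.9 to 140.1 CPM (median 119) in controls and from 147 to 228 CPM (median 187) with Hb, again with no overlap (0.73 ± 0.084, adjusted p = 4.35e-08). The catalytic subunit Gclc was at 0.37 ± 0.11, adjusted p = 0.156 and did not pass, nor did Slc7a11, the cystine importer, at 0.96 ± 0.27, adjusted p = 0.124. Slc3a2, the heavy chain that anchors Slc7a11 in the membrane, passed with a small change (0.16 ± 0.036, adjusted p = 0.0154). Slc3a2 lost its call without control replicate 1 or 7 and without Hb replicate 6 (adjusted p = 0.0510 to 0.0574). Summed over the 16 genes of glutathione synthesis and recycling, controls held 1225 to 1438 CPM and Hb libraries 1469 to 1915, with no overlap. Of these 16, 3 rose one by one and 12 were higher. The sums of the NRF2 list overlapped, from 10181.5 to 20574 CPM in controls and from 15549 to 28072 with Hb. Those of the glutathione S-transferase, thioredoxin and NADPH lists overlapped as well.

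Of the genes that conjugate or export glutathione, Gstm1, Gsta3, Mgst2 and Abcc1 rose. Gstm1, an abundant glutathione transferase, ran from 149 to 249 CPM (median 213) in controls and from 253 to 418 CPM (median 330.3) with Hb, with no overlap (0.73 ± 0.11, adjusted p = 2.65e-05). Gsta3 rose from a low level, from 0.859 to 2.59 CPM (median 1.28) against 1.82 to 6.10 CPM (median 3.80), a log2 fold change of 1.20 ± 0.22, adjusted p = 0.00104. Mgst2, the microsomal transferase, rose by 0.98 ± 0.22, adjusted p = 0.0153. Mgst2 lost its call without control replicate 3 (adjusted p = 0.0537). These 3 were the calls among 19 transferases tested (0.309% of all genes rose), of which 16 were higher (47.7% of all genes were) and none fell. Members of the Gstm and Gsta families share sequence, so how their reads were divided is uncertain. Abcc1 exports glutathione conjugates and separated the groups completely in spite of a small shift, from 63.4 to 74.6 CPM (median 69.4) against 79.4 to 99.0 CPM (median 85.5), a log2 fold change of 0.36 ± 0.048, adjusted p = 2.25e-06. Glutathione reductase Gsr rose by 0.36 ± 0.087, adjusted p = 0.0325. Gsr lost its call without control replicate 7 or 9 and without Hb replicate 3, 4, 5, 6 or 9 (adjusted p = 0.0556 to 0.103).

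The thioredoxin system and the supply of NADPH, which feeds both reductases, gave 3 raised and 0 lowered genes each, of 13 and 12 tested. Over all genes, 0.309% rose and 0.068% fell. Prdx1, a peroxiredoxin that removes hydrogen peroxide and whose window is printed above, ran from 434 to 796 CPM (median 535) in controls and from 718 to 1244 CPM (median 912) with Hb. Of the 10 Hb libraries, 6 stood above every control, and it rose by 0.69 ± 0.12, adjusted p = 0.000666. Sulfiredoxin Srxn1, which repairs over-oxidized peroxiredoxins, rose by 0.67 ± 0.14, adjusted p = 0.00617 and thioredoxin reductase Txnrd1 by 0.35 ± 0.081, adjusted p = 0.0212. Txnrd1 lost its call without control replicate 7 or 9 and without Hb replicate 4 or 6 (adjusted p = 0.0720 to 0.0812). For NADPH, the first enzyme of the pentose phosphate pathway, G6pdx, ran from 135 to 199.9 CPM (median 159.7) against 177 to 287 CPM (median 219.6), a log2 fold change of 0.47 ± 0.081, adjusted p = 0.000515. The next dehydrogenase of that pathway, Pgd, rose by 0.37 ± 0.083, adjusted p = 0.0161, and cytosolic isocitrate dehydrogenase Idh1 by 0.18 ± 0.040, adjusted p = 0.0154. Pgd lost its call without control replicate 2, 3 or 6 (adjusted p = 0.0501 to 0.0666). Idh1 lost its call without control replicate 3 or 9 (adjusted p = 0.0518 to 0.0694). Superoxide dismutase Sod1 had 0.19 ± 0.042, adjusted p = 0.0154. Sod1 lost its call without control replicate 8 (adjusted p = 0.0514).

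Ikbkg encodes NEMO, the regulatory subunit of the IκB kinase, and separated the groups with a narrow spread, from 55.7 to 62.5 CPM (median 57.2) against 68.7 to 79.1 CPM (median 75.3), a log2 fold change of 0.36 ± 0.033, adjusted p = 3.57e-11. Ikbkg and G6pdx overlap on opposite strands, and without a stated strand setting their reads cannot be told apart where they overlap. Adh7, an alcohol dehydrogenase of low level, ran from 0.119 to 0.719 CPM (median 0.377) against 0.880 to 2.24 CPM (median 1.30), a log2 fold change of 1.81 ± 0.27, adjusted p = 2.85e-05, with no overlap. Other raised genes of detoxification and redox control were the growth inhibitor Osgin1 (0.67 ± 0.13, adjusted p = 0.00240), the aldo-keto reductase Akr1b8 (0.65 ± 0.15, adjusted p = 0.0233), the epoxide hydrolase Ephx1 (0.41 ± 0.094, adjusted p = 0.0199), the iron-binding pirin Pir (0.42 ± 0.10, adjusted p = 0.0308) and the small MAF protein Mafg (0.25 ± 0.044, adjusted p = 0.000666), a partner of both NRF2 and BACH1. Akr1b8 lost its call without control replicate 1, 2, 3, 5 or 6 and without Hb replicate 5, 8 or 10 (adjusted p = 0.0615 to 0.09999). Ephx1 lost its call without control replicate 7 or 9 and without Hb replicate 4 or 6 (adjusted p = 0.0568 to 0.0725). Pir lost its call without control replicate 1, 2, 6, 7 or 9 and without Hb replicate 4, 5, 6, 7 or 8 (adjusted p = 0.0589 to 0.104).

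**Figure D2:**
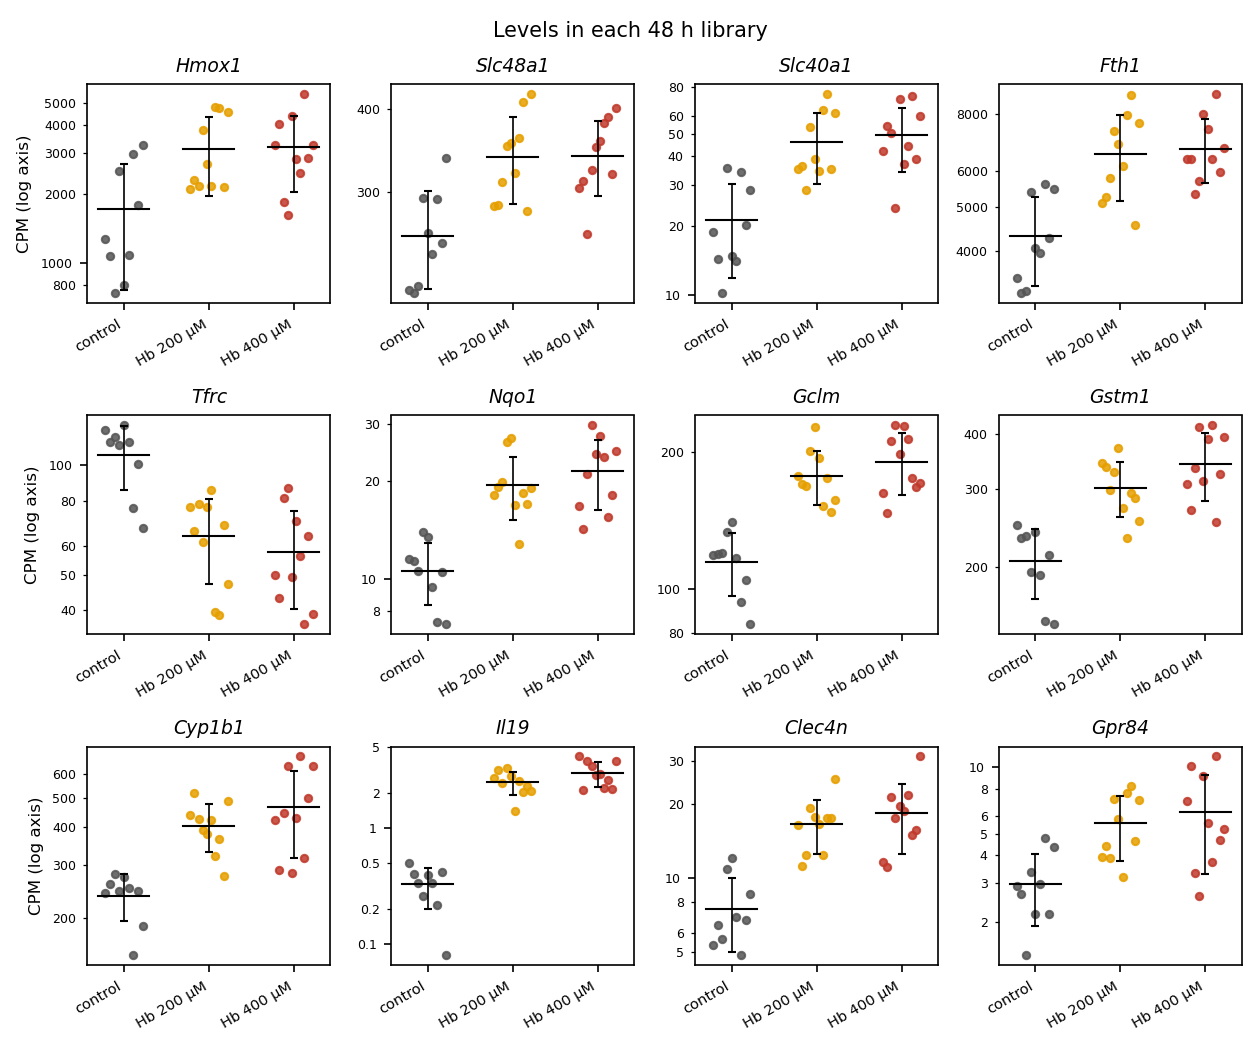
CPM on a log axis for 12 genes in each 48 h library of the control (9), Hb 200 μM (10) and Hb 400 μM (10) groups, where points are libraries and bars the mean ± SD. Nqo1, Gclm, Gstm1, Cyp1b1 and Il19 show no overlap between control and 400 μM, whereas 5 of the 10 libraries with 400 μM lie within the control range of Hmox1.

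Genes regulated by the aryl hydrocarbon receptor, a sensor of planar aromatic ligands, were a list of 5, of which 3 rose (0.309% of all genes did) and none fell. The fitted values of all 5 lay above 0 (47.7% of all genes did), from 0.23 to 2.27 with a median of 0.90 (log2). Cyp1b1, a cytochrome P450 that oxidizes estrogens and polycyclic compounds, ran from 151 to 280.0 CPM (median 247) in controls and from 283 to 688 CPM (median 439) with Hb. Its groups did not overlap and it rose by 0.97 ± 0.17, adjusted p = 0.000602. Cyp1a1, the classic target, ran from 0.0400 to 0.226 CPM (median 0.0628) in controls and from 0.107 to 0.817 CPM (median 0.592) with Hb, where 9 of the 10 libraries lay above every control. It rose by 2.27 ± 0.37, adjusted p = 0.000151, at a level where few reads carry the value. Ahrr, the repressor that the receptor induces against itself, ran from 1.91 to 3.99 CPM (median 2.81) against 3.34 to 7.63 CPM (median 4.94), a log2 fold change of 0.90 ± 0.13, adjusted p = 1.80e-05. Tiparp, another target, was at 0.23 ± 0.062, adjusted p = 0.114. Summed over the 5 genes, controls held 196 to 341 CPM and Hb libraries 344 to 760, with no overlap. Most of this sum was Cyp1b1, whose libraries did not overlap on their own.

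Myeloid and secreted genes included the change with the highest fold. Il19, a cytokine of the interleukin 10 family, ran from 0.0801 to 0.496 CPM (median 0.337) in controls and from 2.13 to 4.15 CPM (median 2.91) with Hb. No libraries overlapped and the log2 fold change was 3.18 ± 0.27, adjusted p = 2.35e-12. The C-type lectins Clec4n (dectin-2) and Clec4d, receptors of macrophages and microglia, rose as well. Clec4n ran from 4.87 to 12.1 CPM (median 6.73) against 11.1 to 31.4 CPM (median 18.2), a log2 fold change of 1.29 ± 0.18, adjusted p = 7.34e-06, and Clec4d from 10.2 to 45.9 CPM (median 17.6) against 26.5 to 85.5 CPM (median 48.7), a log2 fold change of 1.07 ± 0.25, adjusted p = 0.0296. Of the 10 Hb libraries, 8 lay above every control for Clec4n and 6 for Clec4d. Clec4d lost its call without control replicate 1, 2, 3, 5 or 6 and without Hb replicate 5, 8 or 10 (adjusted p = 0.0553 to 0.111). Marco, a scavenger receptor of macrophages, rose by 0.98 ± 0.24, adjusted p = 0.0377, the platelet basic protein Ppbp by 2.02 ± 0.44, adjusted p = 0.0124 and the calprotectin subunit S100a8 by 0.76 ± 0.17, adjusted p = 0.0199. Ppbp did not have 10 counts in every library, and 7 of its 10 Hb libraries lay above every control. Marco lost its call without control replicate 1, 2, 3, 5, 6, 7 or 9 and without Hb replicate 5, 6, 8 or 9 (adjusted p = 0.0521 to 0.177). S100a8 lost its call without control replicate 3, 5 or 6 and without Hb replicate 5 (adjusted p = 0.0545 to 0.0827). Ereg, the EGF receptor ligand epiregulin, ran from 0.572 to 2.91 CPM (median 2.67) against 3.45 to 5.48 CPM (median 4.25), a log2 fold change of 0.92 ± 0.20, adjusted p = 0.0139, with no overlap. Il19, Clec4n and Clec4d were the 3 raised genes of 25 listed for inflammatory activation (0.309% of all genes rose). Of these 25, 20 were higher (47.7% of all genes were), none fell and the median was 0.14. Tumor necrosis factor receptor Tnfrsf1a was at 0.16 ± 0.046, adjusted p = 0.155 and Ptgs2 at 0.64 ± 0.20, adjusted p = 0.240. Tnfrsf1a passed when Hb replicate 7 was left out (adjusted p = 0.0373), with culture round and sex as terms (0.0413) and with 2 surrogate variables (0.0393).

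Hmox1, the inducible heme oxygenase, varied widely between libraries. It ran from 739.5 to 3257 CPM (median 1269) in controls and from 1617 to 5425 CPM (median 3069.6) with Hb, so that 5 of the 10 Hb libraries lay within the control range. The log2 fold change was 0.91 ± 0.27, adjusted p = 0.184 with a 95% interval from 0.37 to 1.45, and it did not pass. The receptor Gpr84, a marker of activated microglia, was similar, from 1.42 to 4.77 CPM (median 2.92) against 2.62 to 11.2 CPM (median 5.43), a log2 fold change of 1.07 ± 0.28, adjusted p = 0.0728. Gpr84 passed without control replicate 7 or without Hb replicate 3, 4 or 7 (adjusted p = 0.0335 to 0.0457). It also passed with DESeq2, the tool named in the study's methods (adjusted p = 0.0238), and in 8 of the 18 other settings in all, among them the fit with culture round (0.0103). Hmox1 passed in 8 of the 18 as well, among them the edgeR fit with culture round (adjusted p = 0.00799). Hmox1 did not pass with DESeq2 (0.0935) or in any of the 19 fits that left out 1 library. Both genes varied across libraries with a list of phagocyte markers. The summed level of 16 markers of disease-associated microglia, such as Apoe, Trem2 and Gpnmb, ran from 7704 to 34859 CPM in controls and from 8771 to 35332 with Hb. None of the 16 passed the test (0.377% of all genes did), 13 were higher (47.7% of all genes were) and the median was 0.13. The median of this list was 0.40 in culture round E1 alone, −0.41 in round E2 alone and −0.43 in batch 3 alone, and leaving out 1 library moved it between 0.014 and 0.31 (without Hb replicate 8 and control replicate 7). In bulk tissue, fewer cells of a type and less RNA per cell cannot be told apart.

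Within the 9 controls, Hmox1 and the summed list, both in CPM of the same library, had a Pearson r of 0.98 (exact permutation test, p = 2.2e-05) and a Spearman rho of 0.95 (exact permutation test, p = 0.000353). Within the 10 Hb libraries r was 0.97 and rho 1 (permutation test, p = 1e-05 for each, the smallest that 100000 resamples can give). These are 2 of 4 relations computed, and the Benjamini-Hochberg values were 2.93e-05 and 2.93e-05 for r and 0.000471 and 4e-05 for rho. Without the 2 libraries farthest from the median of the list, r was 0.96 and 0.93. Within batch 2 it was 0.97 (n = 7) and 0.98 (n = 8), and within culture round E1 0.97 and 0.97 (n = 7 each), while batch 3 held 2 libraries a group. For Gpr84 the values were r = 0.84 (exact permutation test, p = 0.00426, adjusted 0.00426) and rho = 0.75 (exact permutation test, p = 0.0255, adjusted 0.0255) in controls, and r = 0.96 (permutation test, p = 2e-05, adjusted 2.93e-05) and rho = 0.95 (p = 0.00011, adjusted 0.00022) with Hb. Without the 2 farthest libraries r fell to 0.63 in controls and was 0.94 with Hb. Within batch 2 it was 0.93 and 0.97, and within round E1 0.62 and 0.97.

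Divided by the summed list of the same library, Hmox1 no longer overlapped. It ran from 81.1 to 108 CPM per 1000 CPM of the list in controls (median 95.6) and from 132 to 184 with Hb (median 160.02), a ratio of medians of 1.67. Slc40a1 ran from 0.865 to 1.92 in controls (median 1.20) and from 1.94 to 3.60 with Hb (median 2.44) on the same scale. Gpr84 still overlapped, from 0.116 to 0.283 in controls and from 0.237 to 0.364 with Hb. Nqo1 and Cyp1b1, which did not overlap in CPM, did so after the division. Nqo1 then ran from 0.212 to 1.75 in controls and from 0.440 to 3.39 with Hb. On this scale 7 of the 16183 genes (0.0433%) separated the groups, 5 of them higher with Hb (0.0309%), namely Slc40a1, Il19, Hmox1, Spint1 and Dok2. The scale was chosen after the levels were seen and is given as a description. With the log2 sum of the list as a covariate, also chosen after seeing the data, Hmox1 had a log2 fold change of 0.79 ± 0.082, adjusted p = 5.25e-10. The list was measured in the treated libraries themselves.

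**Figure D3:**
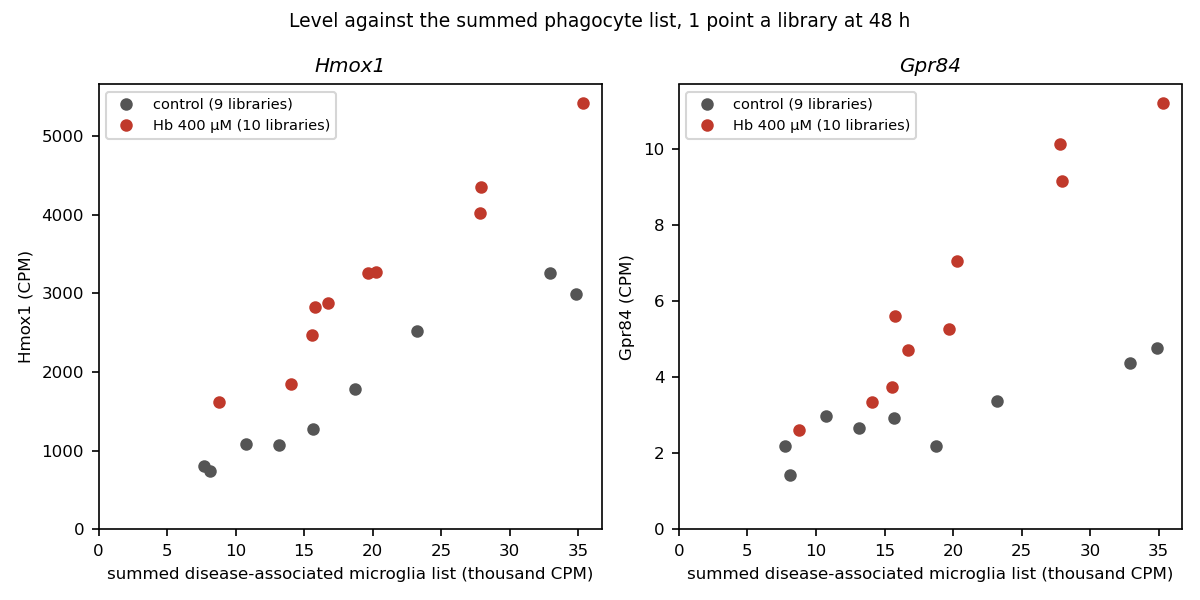
Hmox1 (left) and Gpr84 (right) in CPM against the summed level of 16 disease-associated microglia markers in units of 1000 CPM, with 1 point per 48 h library. The Hb libraries lie above the controls of like list level for Hmox1, and the list spans about the same range in both groups.

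Of the 50 raised genes, 23 were in none of the lists. Among these were the amino acid transporter Slc36a2 (1.44 ± 0.28, adjusted p = 0.00162), the apolipoprotein E receptor Lrp8 (0.34 ± 0.076, adjusted p = 0.0139), the cytochrome b5 gene Cyb5a (0.43 ± 0.079, adjusted p = 0.000974), the S-formylglutathione hydrolase Esd (0.51 ± 0.079, adjusted p = 5.20e-05), the testis calreticulin Calr3 (0.53 ± 0.11, adjusted p = 0.00406) and the homeodomain gene Hopx (0.64 ± 0.16, adjusted p = 0.0398). Acetyl-CoA synthetase Acss2 separated the groups at a small fold, from 36.5 to 43.7 CPM (median 40.8) against 43.9 to 55.1 CPM (median 48.3), a log2 fold change of 0.27 ± 0.050, adjusted p = 0.00119. It overlaps Gss and Ggt7 on the opposite strand. The platelet-derived growth factor Pdgfa rose by 0.29 ± 0.066, adjusted p = 0.0205 and the kinase Map2k3 by 0.19 ± 0.037, adjusted p = 0.00173. Further calls with small changes were Gsap (0.37 ± 0.075, adjusted p = 0.00406), Lrrfip2 (0.15 ± 0.035, adjusted p = 0.0308), Tmem43 (0.14 ± 0.028, adjusted p = 0.00383) and the autophagy SNARE Stx17 (0.13 ± 0.031, adjusted p = 0.0283). Hopx lost its call without control replicate 1, 2, 3, 5, 6 or 9 and without Hb replicate 5, 6, 7 or 8 (adjusted p = 0.0528 to 0.138). Pdgfa lost its call without control replicate 1, 2, 3, 5 or 6 and without Hb replicate 5 or 8 (adjusted p = 0.0501 to 0.0776). Lrrfip2 lost its call without control replicate 1, 2, 3, 6, 7 or 8 and without Hb replicate 6, 7 or 10 (adjusted p = 0.0714 to 0.123). Stx17 lost its call without control replicate 1, 3, 6, 7 or 9 and without Hb replicate 3, 6 or 8 (adjusted p = 0.0511 to 0.115).

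The 11 lowered genes had smaller folds than the leading raised ones. Pi15, a secreted peptidase inhibitor, fell by most, from 4.33 to 10.9 CPM (median 7.94) in controls against 2.57 to 7.31 CPM (median 3.82) with Hb, a log2 fold change of −0.98 ± 0.17, adjusted p = 0.000666. Epb41l4a, a band 4.1 family gene, separated the groups, from 11.7 to 15.8 CPM (median 14.7) against 7.38 to 10.8 CPM (median 9.96), a log2 fold change of −0.56 ± 0.091, adjusted p = 0.000117. Pck2, mitochondrial phosphoenolpyruvate carboxykinase, did so too, from 41.1 to 52.6 CPM (median 42.8) against 29.3 to 38.9 CPM (median 36.1), a log2 fold change of −0.36 ± 0.079, adjusted p = 0.0140. Pck2 lost its call without control replicate 5 (adjusted p = 0.0545). Ddit4, an inhibitor of mTORC1 induced by hypoxia and amino acid stress, ran from 60.3 to 145 CPM (median 87.3) without and from 56.5 to 76.04 CPM (median 66.1) with Hb, a log2 fold change of −0.53 ± 0.11, adjusted p = 0.00548. Its controls spread over a wider range than its Hb libraries and overlapped them. Fam163a (−0.81 ± 0.19, adjusted p = 0.0199), the growth factor Bmp4 (−0.60 ± 0.13, adjusted p = 0.0134), the chondroitin sulfotransferase Chst3 (−0.32 ± 0.058, adjusted p = 0.000666), the ubiquitin ligase Rnf122 (−0.31 ± 0.053, adjusted p = 0.000419), the arsenic methyltransferase As3mt (−0.29 ± 0.067, adjusted p = 0.0193) and Rundc3a (−0.19 ± 0.047, adjusted p = 0.0486) completed the set with Tfrc. Fam163a lost its call without control replicate 8 or 9 and without Hb replicate 4 (adjusted p = 0.0511 to 0.0845). As3mt lost its call without control replicate 1 or 9 and without Hb replicate 5 (adjusted p = 0.0509 to 0.0692). Rundc3a lost its call without control replicate 2, 3, 5, 6 or 9 and without Hb replicate 1, 3, 4, 5, 6, 7, 8, 9 or 10 (adjusted p = 0.0512 to 0.166).

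**Figure D4:**
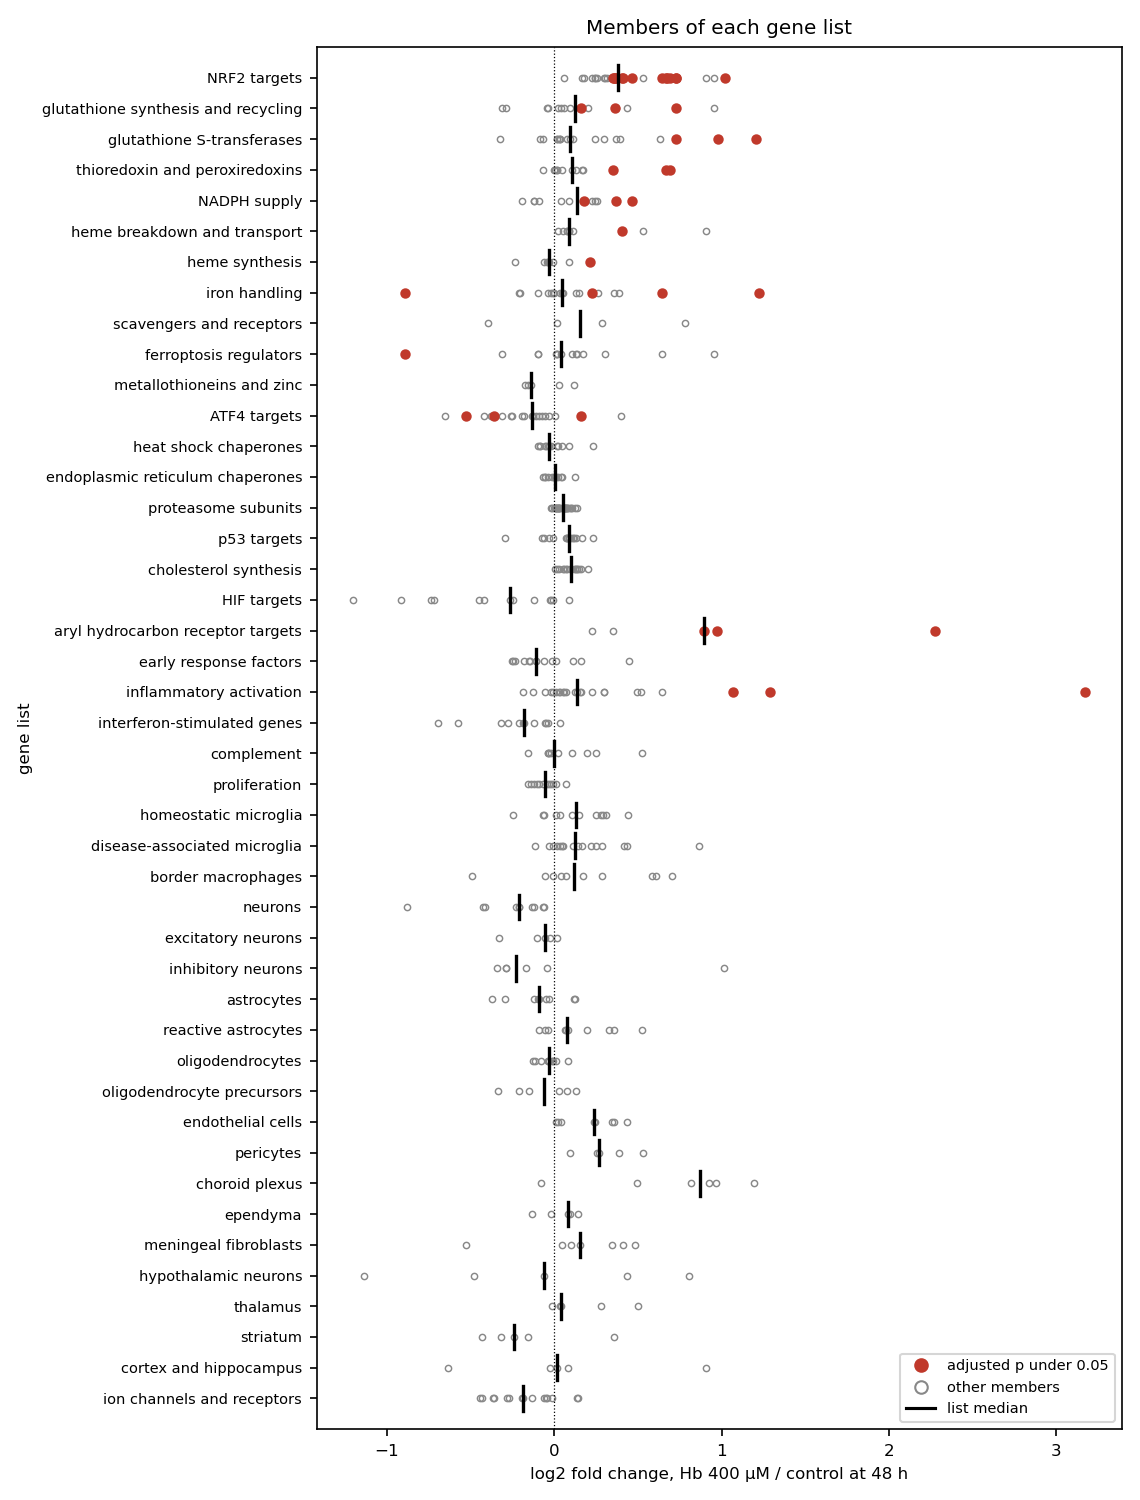
Log2 fold change of every tested member of each gene list at 48 h (x axis), with 1 list per line, filled points for an adjusted p under 0.05 and a bar at the list median. The 30 NRF2 targets all lie above 0, and no cell type list holds a filled point.

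Stress programs other than the antioxidant one gave few or no calls. Over all genes, 0.377% were called and 47.7% were fitted higher. Of 21 targets of ATF4, the factor of the integrated stress response, 2 fell (Ddit4 and Pck2), 1 rose (Slc3a2) and 3 were fitted higher, with a median of −0.13. Of 15 ferroptosis regulators 1 fell, Tfrc, and none rose (11 higher, median 0.043, but −0.19 in round E2 alone). No gene passed among 13 HIF targets (1 higher, median −0.26), with Vegfa at −0.92 ± 0.32, adjusted p = 0.402 and Car9 at −1.20 ± 0.51, adjusted p = 0.635. None passed among 12 interferon-stimulated genes (1 higher, median −0.18), 16 genes of cholesterol synthesis (16 higher, median 0.10), 30 proteasome subunits (27 higher, median 0.052) or 17 p53 targets (12 higher, median 0.089). The 13 heat shock chaperones, 12 endoplasmic reticulum chaperones, 5 metallothionein and zinc genes, 10 complement genes, 14 early response factors and 12 proliferation genes held no call, with medians between −0.14 and 0.0019.

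No marker list of a cell type held a gene that passed (0.377% of all genes did). Among all genes, 47.7% were fitted higher. All 10 neuronal markers were fitted lower with Hb (median −0.21), but in culture round E1 alone the median was 0.16, and without control replicate 7 it was 0.017. A set of 15 ion channels and neurotransmitter receptors had 2 members higher (median −0.19, but 0.092 in round E1 alone and −0.030 without control replicate 7). The endothelial (8 of 8 higher, median 0.24) and pericyte markers (5 of 5, median 0.27) were on the other side, with medians of −0.15 and −0.40 in batch 3 alone. Choroid plexus markers (5 of 6 higher) had a median of 0.87, which was 1.88 in batch 2 and −4.28 in batch 3 alone, 1.39 in round E1 and −0.46 in round E2 alone, and −0.011 with 2 surrogate variables. Their summed level ran from 5.38 to 413 CPM in controls and from 3.79 to 1235 with Hb. The homeostatic microglia list had 9 of 12 higher (median 0.13, summed level 465 to 2774 CPM in controls and 514 to 2423 with Hb). Its median also turned, from 0.45 in round E1 to −0.76 in round E2 and −0.62 in batch 3, and without 1 library it lay between 0.024 and 0.32 (without Hb replicate 2 and control replicate 7). Batch 3 and round E2 hold 2 to 3 libraries a group. The 5 genes of red blood cells, 4 globin genes and Alas2, were below the count filter. With the disease-associated microglia list as covariate, added after the data were seen, 234 genes were called, among them all 61. The part of the cell type differences in the calls was not tested.

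The higher dose was tested directly against the lower one at 48 h, where 10 further libraries had 200 μM Hb. No gene passed the edgeR test of 400 against 200 μM (0 of 16183, 0%), 202 had an unadjusted p under 0.05 (1.25%), and DESeq2 called 2 genes of at most 0.00942 CPM that the edgeR fit had filtered out. Against the same controls, 200 μM gave 38 called genes (0.235%), 31 raised and 7 lowered. Since both doses share these controls, their values are set side by side, followed by the direct difference with its 95% interval. Il19 was at 3.18 ± 0.27, adjusted p = 2.35e-12 with 400 and 2.90 ± 0.27, adjusted p = 5.86e-11 with 200 μM, and the difference was 0.27, −0.18 to 0.73. For Nqo1 the values were 1.02 and 0.87 with a difference of 0.15, −0.12 to 0.41. Gclm was at 0.73 and 0.62 (0.11, −0.057 to 0.27). Slc40a1 stood at 1.23 and 1.13 (0.10, −0.33 to 0.52), Fth1 at 0.64 and 0.61 (0.036, −0.20 to 0.27) and Tfrc at −0.89 and −0.75 (−0.15, −0.47 to 0.17). Cyp1a1 was fitted higher at the lower dose, 2.27 against 2.58 (−0.30, −0.93 to 0.32). Each of these intervals includes 0, and a missed threshold does not show that the doses act alike. Among the 61 genes, 3 had an unadjusted dose p under 0.05, all lowered ones, namely Rnf122 (−0.14, −0.24 to −0.035), Rundc3a (−0.11, −0.20 to −0.013) and Ddit4 (−0.22, −0.44 to −0.011). The 61 genes were selected with the same 400 μM libraries, which favors larger fitted effects at 400 than at 200 μM. These 3 are therefore given as a description.

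At 24 h, 10 Hb and 10 control libraries of the same batches, none of them in the 48 h groups, gave 55 called genes (0.34%), 49 raised and 6 lowered. They may share animals with the 48 h libraries. Both times were fitted together and share the estimate of the spread, so the 2 tests are not independent. Of the 61 genes called at 48 h, 33 were called in the same direction at 24 h, which is also 33 of those 55, and 60 had the same sign. The NRF2 list had 15 raised genes at 24 h. The difference between the 48 h and 24 h effects passed for 0 genes (0%), with 352 at an unadjusted p under 0.05 (2.18%) and 2 genes called by DESeq2, neither of them in the edgeR fit. Il19 had a log2 fold change of 2.74 ± 0.25, adjusted p = 4.53e-11 at 24 h, Nqo1 of 0.81 ± 0.13, adjusted p = 0.000126, Slc40a1 of 1.32 ± 0.22, adjusted p = 0.000126 and Tfrc of −0.68 ± 0.16, adjusted p = 0.0307. Hmox1 was at 0.93 ± 0.26, adjusted p = 0.144, close to its 48 h value and again not past the threshold. Among the 61 genes, 9 had an unadjusted p under 0.05 for the difference between times, with an adjusted p of 1 for each, and they were picked out after their values were seen. They were the lowered Bmp4, Fam163a, Epb41l4a, Rnf122 and Chst3 and the raised Stx17, Slc3a2, Slc36a2 and Ahrr. Bmp4 was at −0.60 at 48 h and −0.056 at 24 h (difference −0.54, −0.91 to −0.17), Fam163a at −0.81 and −0.064 (−0.75, −1.26 to −0.23) and Slc36a2 at 1.44 and 0.46 (0.99, 0.24 to 1.74). For these genes the 24 h values were near 0 or under the 48 h ones in size, which their selection by the 48 h test favors.

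**Figure D5:**
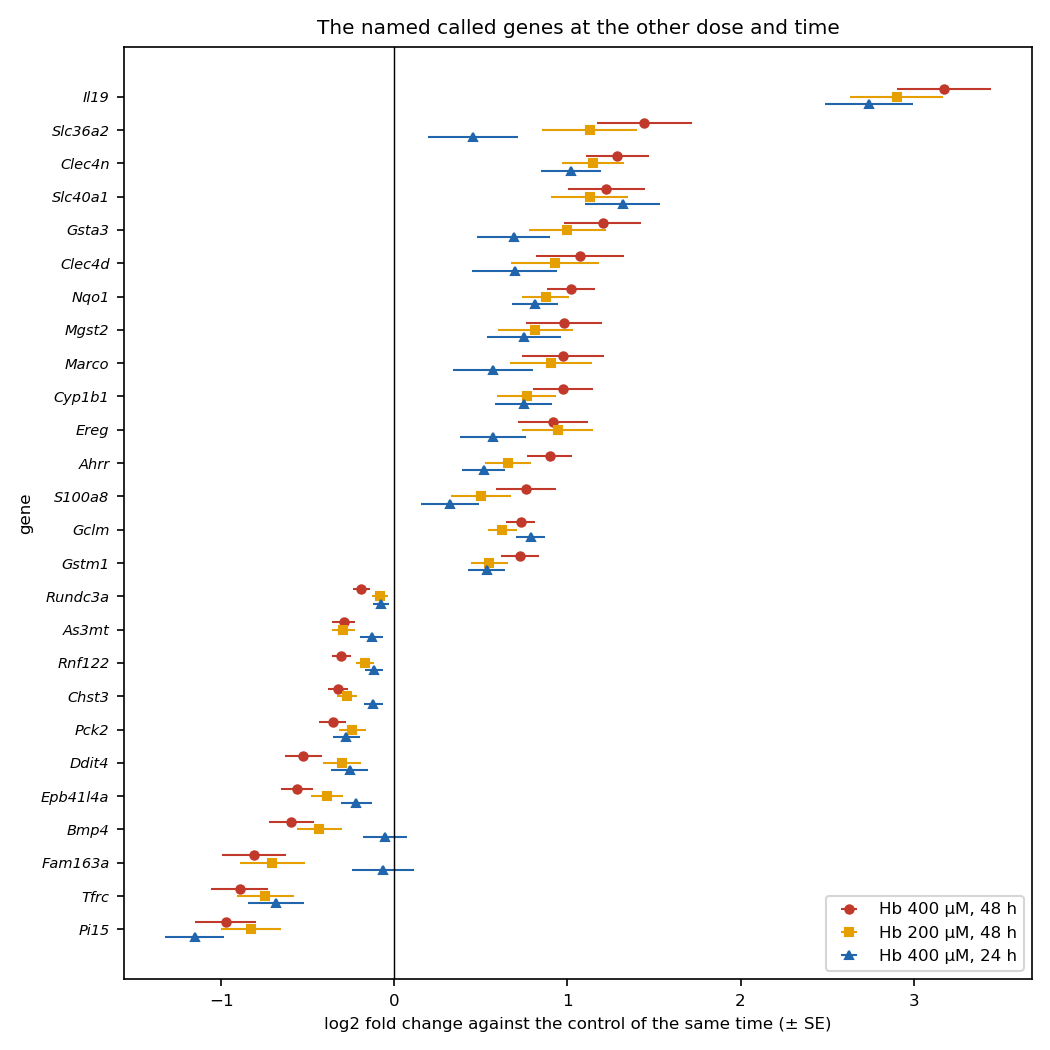
Log2 fold change ± SE (x axis) of named called genes for Hb 400 μM at 48 h (circles), Hb 200 μM at 48 h (squares, same controls) and Hb 400 μM at 24 h (triangles, separate controls). Il19 lies between 2.74 and 3.18 in all 3, and Bmp4 and Fam163a lie near 0 at 24 h.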

How the data were processed

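Total RNA from the slices was extracted with the Lexogen SPLIT kit and made into Illumina TruSeq mRNA libraries. The authors deposited 1 table of raw counts per library, which the labels trace to featureCounts on GRCm39, and the aligner and the strand setting are not given in the sources used here. The counts of 25528 genes were used as deposited, with no column left over. edgeR 4.0.16 in R 4.3.3 was run on 59 libraries (control, Hb 200 μM and Hb 400 μM at 24 and 48 h in batches 2 and 3), with TMM scaling, filterByExpr (minimum count 10, minimum total count 15), 1 coefficient per group, a batch term, the quasi-likelihood test and Benjamini-Hochberg adjustment over 16183 genes. Contrasts were Hb 400 μM against control and against Hb 200 μM at 48 h, and the difference of the 48 h and 24 h effects. Standard errors were taken from the fold change and F value. The study's methods name DESeq2, which was run as an alternative (version 1.42.0), with other scalings, filters, covariates (surrogate variables by sva 3.50.0), subsets and fits that left out each library in turn. Values below 1 CPM rest on few reads at these depths, and the counting of reads covers counting error only.

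Members and gene lists were chosen with earlier results of these data known. Named genes were those the study names, the 15 most raised and 15 most lowered calls with a mean of at least 1 CPM, and from each list the calls and the 3 most abundant members. Other genes named in the text were chosen after their values were seen. Groups came from the treatment label, and replicate numbers were given in accession order. The fit was tested on simulated data with known changes. Promoter windows came from RefSeq (GRCm38.p6), matched by symbol, and no coordinates of that build are given for the counted genes. Overlapping genes were read from an annotation of GRCm38.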

Additional observations from a re-analysis of the deposited data

Results flagged for a closer look

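Gaps between the most extreme library and its nearest neighbor were tested by Dixon's criterion in 132 groups of libraries, the 48 h control and Hb 400 μM libraries of 66 genes. Chance alone sets aside about 1 in 20 such groups, and 6 were set aside here. In controls, replicate 9 was the highest for As3mt at 25.4 CPM (next 21.8) and the lowest for Il19 at 0.0801 CPM (next 0.215), and replicate 7 was the lowest for Ncoa4 at 60.9 CPM (next 65.4). With Hb, replicate 7 was the highest for Bmp4 at 4.34 CPM (next 3.46), replicate 9 the lowest for Cyp1a1 at 0.108 CPM (next 0.398) and replicate 3 the highest for Pi15 at 7.31 CPM (next 4.33). As3mt lost its call without control replicate 9, as given in the report, and the other 5 genes were called whichever library was left out.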

How the results depend on the processing

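The 48 h comparison was refitted under 18 other settings (13 planned and 5 added after the data were seen) and without each of the 19 libraries. The number of genes called stayed within 1.5 times of 61 with DESeq2 (82, of which 61 were the genes called above, with 20 lowered), RLE scaling, omitting the batch term, a floor of 10 counts in each library, no filter on low counts, all assigned libraries of both batches, culture round E1 alone (86, with 22 lowered) and batch 2 alone. More genes were called with culture round as a further term (100, 25 lowered), with round and sex (122, 91 raised and 31 lowered), with 1 surrogate variable (154, 111 raised and 43 lowered), with 2 (284, 172 raised and 112 lowered) and with the microglia list as covariate (234, 153 raised and 81 lowered). The raised share of the calls was 81.97% in the report's fit, 60.6% with 2 surrogate variables and 65.4% with that covariate. The 19 libraries fitted alone gave 35 (28 raised and 7 lowered), and fewer libraries then set the estimate of the spread. Batch 3 alone and round E2 alone gave 0 (249 and 2020 genes at an unadjusted p under 0.05, edgeR, with no other tool run), with 2 to 3 libraries a group. Apart from those subsets, the cause was not tested. Leaving out 1 library gave 47 (without control replicate 3) to 75 called genes (without control replicate 4), 37 to 60 raised and 8 to 15 lowered. The 8 came without control replicate 9 and the 15 without control replicate 4. The dose and the time contrasts gave 0 without each of the 19 libraries.

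Whether library codes or title numbers pair the libraries stayed undecided. By code 3 of 8 pairs, and by title number 3 of 9, deviated together at a correlation over 0.1 (range −0.87 to 0.84 for codes). So few pairs with so wide a range can neither show nor exclude a pairing. With a replicate block by library code 107 genes were called (83 raised and 24 lowered), and with a replicate block by title number 1 was (1 raised, Il19, and 0 lowered), with 535 at an unadjusted p under 0.05 in edgeR. The code block called 1 gene, Itga8, for the difference between times (1 raised).

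Of the 61 called genes, 60 kept their sign under every setting in which they were tested (Adh7, Cyp1a1, Il19 and Ppbp were below the floor of 10 counts in each library), and Ddit4 was at 0.0076 in round E2 alone. Cd163, not called, was at −0.18 in round E2 alone. Lrp1, not called and at 0.019, ran from −0.035 to 0.070 without 1 library (below 0 in 6 of 19 fits) and was −0.0074 with 2 surrogate variables, −0.037 with the covariate, −0.13 in batch 3 alone and −0.46 in round E2 alone. Hmox1 passed in 8 of the 18 settings, among them the fit with culture round (adjusted p = 0.00799) and round E1 alone (0.0166), and not with DESeq2 (0.0935) or in batch 2 alone (0.114). Depth limits the genes below 1 CPM, such as Cyp1a1 and Il19 in controls.

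For the dose, DESeq2 called 2 genes (Krt2 raised and Skint8 lowered, 1 each), and for the difference between times 2 (Skint8 and Cldn17, 2 lowered), all of them below the filter of the edgeR fit. The lower dose at 48 h gave 58 called genes with round (50 raised), 74 with round and sex (63 and 11), 76 with the code block (67 raised), 99 and 161 with 1 and 2 surrogate variables (79 and 20, 116 and 45) and 126 with the covariate (99 and 27). It gave 19 with all assigned libraries (18 and 1), 2 lowered genes in round E1 alone and in batch 2 alone, and 0 in batch 3 alone and round E2 alone. At 24 h the counts were 85 with round (14 lowered), 102 with round and sex (87 and 15), 170 and 176 with surrogate variables (130 and 40, 146 and 30), 180 with the covariate (145 and 35), 3 lowered with all assigned libraries, 0 in batch 3 alone and 4 in round E2 alone (Gclm, Gsr and Txnrd1 raised and Plin4 lowered).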

Other observations

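The Hb effect at 48 h was also compared between the sexes and between the culture rounds, both as read from the library codes. For sex, no gene passed the edgeR quasi-likelihood test of the difference (0 of 16183, smallest adjusted p = 1), and 292 genes had an unadjusted p under 0.05 (1.80%). For culture round, no gene passed (0 of 16183, smallest adjusted p = 0.0707, for Ereg, Dlx5 and Crygs among others), and 2994 genes had an unadjusted p under 0.05 (18.5%). Round E2 held 3 Hb and 2 control libraries, and fitted alone, round E1 gave 86 called genes in edgeR and round E2 gave 0, with 2020 at an unadjusted p under 0.05 and no other tool run on that subset.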
